A study of Mus musculus with 15 samples.

Results

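The clustered histone genes are the mouse genes whose symbols begin with Hist1h, Hist2h, Hist3h or Hist4h, and 70 genes carry such a symbol among 51627 genes of the stem cell table and among 53564 genes of the embryo table. The symbols give the same 70 genes in both tables. They encode linker histone H1 (6 genes), H2A (20), H2B (19), H3 (12) and H4 (13), and 3 of them, Hist1h2aj, Hist1h2al and Hist3h2bb-ps, are annotated as pseudogenes. The RNA of these genes was read in J1 mouse embryonic stem cells (ESCs, a feeder-free culture of cells from the early embryo) that overexpressed Zscan4 (2 libraries, OE) or were controls labelled wild type (2 libraries), and in 2-cell embryos given RNA interference against Zscan4 (6 libraries, RNAi) or serving as controls (5 libraries). Zscan4 is a gene family expressed at the late 2-cell stage and, in culture, in few ESCs at a time. The labels do not give the construct that drove Zscan4, the induction time, the RNAi reagent, the number of embryos per library or whether poly(A) RNA was selected, and nothing says that replicates came from separate cultures or embryos, so p-values here cover the spread among these libraries and no more.

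Replication-dependent histone genes are short, mostly without introns, and are read in S phase, when new DNA has to be packed into nucleosomes made of H2A, H2B, H3 and H4 and bridged by H1. Their messages normally end in a conserved stem-loop bound by SLBP rather than in a poly(A) tail. Some of the genes also carry a poly(A) signal further downstream, and polyadenylated histone messages are known from cells that have left the cycle. The oocyte stores histone message and an oocyte linker histone, H1foo, before the zygote begins to transcribe.

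In the mm10 genome, 55 of the 56 Hist1 genes lie on chromosome 13 between 21715763 and 23934851, and the pseudogene Hist1h2al lies apart at chr13:51202727-51203065. The 10 Hist2 genes span chr3:96219865-96270132, the 3 Hist3 genes span chr11:58948920-58956830, and Hist4h4 stands alone at chr6:136801553-136804415. These positions and all exons are from the GENCODE vM21 annotation, matched by symbol. A 16-base sequence of the stem-loop form was found after the stop codon in 46 of the 67 protein-coding models, and for 15 models the annotation ends at the stop codon or within 2 bases of it. A poly(A) signal (AATAAA or ATTAAA) lies in the annotated transcript after the stop codon of 22 genes. The stem-loops of 5 genes described below are shown because they differ in what follows them; capitals are the paired stem, and the sequences are on the gene's own strand.
Hist1h1c: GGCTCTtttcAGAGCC
Hist3h2ba: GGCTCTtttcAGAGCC
Hist1h4i: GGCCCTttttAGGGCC
Hist1h3g: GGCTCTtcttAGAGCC
Hist1h2ag: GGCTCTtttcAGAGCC
The Hist1h1c, Hist1h4i and Hist3h2ba models continue for 840, 330 and 169 bases past the stem-loop and hold a poly(A) signal, whereas the Hist1h3g and Hist1h2ag models end 47 and 23 bases past it and hold none. The Hist1h2bc model, with a stop codon followed by 742 annotated bases, holds a poly(A) signal and no match to the stem-loop form.

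Promoters were compared because the called genes belong to different classes. Of the 70 genes, 61 matched an entry of the RefSeq promoter table (GRCm38.p6). In the 250 bases before the start, TATAAA on either strand occurred in 29 of the 61 promoters (47.5%) against 12.4% of all 32851 promoters. CCAAT on either strand occurred in 50 of 61 (82.0%) against 33.8% of all promoters, with all 18 H2A, all 15 H2B and all 6 H1 promoters but 3 of 12 H4 promoters among them. The octamer ATTTGCAT on either strand occurred in 13 of 61 (21.3%) against 1.60% of all promoters, in 7 H2A and 6 H2B promoters. The H1 box AAACACA on either strand occurred in 5 of 6 H1 promoters and in 6.25% of all promoters. The motifs do not overlap one another in the windows printed here, each of which runs 5' to 3' on the strand of the named gene with motifs in capitals.
Hist1h2ac, chr13:23683960-23684209, minus strand: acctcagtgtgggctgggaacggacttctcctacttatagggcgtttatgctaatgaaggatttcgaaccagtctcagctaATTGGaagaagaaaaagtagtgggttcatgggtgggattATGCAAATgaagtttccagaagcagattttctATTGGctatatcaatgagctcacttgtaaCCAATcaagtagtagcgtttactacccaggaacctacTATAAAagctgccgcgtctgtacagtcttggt
Hist1h1c, chr13:23738557-23738806, plus strand: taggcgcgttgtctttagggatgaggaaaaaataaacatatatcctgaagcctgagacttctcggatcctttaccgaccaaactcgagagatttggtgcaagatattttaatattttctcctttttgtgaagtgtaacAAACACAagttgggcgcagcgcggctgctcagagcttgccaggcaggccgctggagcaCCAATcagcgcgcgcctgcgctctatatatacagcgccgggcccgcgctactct
Hist3h2ba, chr11:58948661-58948910, plus strand: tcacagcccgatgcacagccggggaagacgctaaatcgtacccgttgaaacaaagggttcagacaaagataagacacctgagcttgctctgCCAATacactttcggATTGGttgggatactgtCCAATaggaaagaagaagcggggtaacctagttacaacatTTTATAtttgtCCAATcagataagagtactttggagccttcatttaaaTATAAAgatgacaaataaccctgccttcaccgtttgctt
Hist1h1a, chr13:23763418-23763667, plus strand: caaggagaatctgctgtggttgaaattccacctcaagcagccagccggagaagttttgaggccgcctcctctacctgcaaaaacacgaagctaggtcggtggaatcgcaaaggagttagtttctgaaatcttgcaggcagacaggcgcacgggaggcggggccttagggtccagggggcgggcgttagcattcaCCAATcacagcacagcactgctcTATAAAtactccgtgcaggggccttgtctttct
The Hist1h2ac window is also the upstream region of Hist1h2bc, which starts 250 bases away on the other strand and has no entry of its own in the table. The Hist1h2ac window holds an octamer, 3 CCAAT boxes and a TATA box. The Hist1h1c window holds the H1 box and a CCAAT box, the Hist3h2ba window holds 4 CCAAT boxes and 2 TATA motifs, and the Hist1h1a window holds a CCAAT box and a TATA box. A match of letters describes the window and does not show that a factor binds there.

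Many members cannot be told apart by short reads. Of the 70, 36 share at least 50% of their 50-base sequences with the transcript of another gene, and 4 (Hist1h1a, Hist1h1b, Hist1h1t and Hist2h2be) share none. The largest group of near-identical copies holds 8 H2A genes, Hist1h2af, ag, ah, ai, aj, an, ao and ap, linked where at least 60% of the 50-base sequences of both genes are shared. The first 60 coding bases of 4 of them are printed because the embryo results turn on these copies; capitals mark the positions at which the 4 differ, and these are 3 of the 6 such positions in the coding sequence.
Hist1h2ag: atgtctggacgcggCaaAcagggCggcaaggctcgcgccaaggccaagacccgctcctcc
Hist1h2ah: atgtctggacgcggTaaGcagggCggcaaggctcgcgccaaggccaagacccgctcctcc
Hist1h2ao: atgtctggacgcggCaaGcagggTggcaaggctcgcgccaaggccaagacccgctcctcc
Hist1h2ap: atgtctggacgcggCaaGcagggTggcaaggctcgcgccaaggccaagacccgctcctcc
Hist1h2ao and Hist1h2ap have 0 differences over 393 coding bases. Values of single genes in such groups are therefore uncertain, and overlapping genes such as Hist1h2be and Hist1h1e are uncertain as well, since no source used here gives the strand setting of the counting. The treatment of reads that match several copies is not given either, so sums and shares over copies may count a read more than once.

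The ESC libraries held 21820093 to 26555027 reads in genes and the embryo libraries 695524 to 1432566. Deposited values are reads divided by a size factor for each library, called normalised reads here, and were compared within each table. Summed normalised reads of the Zscan4 genes, as a check of the labels, were 20005 and 19449 in OE ESCs, against 152 and 212 in control ESCs. In embryos they ran from 13.9 to 383 in RNAi libraries (median 218) and were 907, 1064, 680, 676 and 345 in controls 1 to 5, so that control 5 lay inside the RNAi range. Control 5 was most like RNAi library 5 over all tested genes (Pearson's r = 0.849, 16417 genes of 1 pair of libraries), and its r with controls 1 to 4 was 0.793 to 0.826, against 0.848 to 0.868 among those 4. The controls are numbered here by the table's columns, whose numbers differ from those in the labels.

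In ESCs that overexpressed Zscan4, few histone genes passed the test, and those that did were not all of the same class. Hist1h2bc (H2B) rose 6.43-fold, Hist1h4i (H4) and Hist1h2be (H2B) rose 4.56-fold and 4.59-fold, Hist1h1c (the linker histone H1.2) rose 2.62-fold, and Hist3h2ba (H2B) fell to 0.318 of the control level. Of the 70 genes, 66 had at least 1 read and 62 passed the filter of a value of at least 1 in 2 libraries. Of these 62, 4 were called higher, where 11.7% of all 20888 genes tested were, and 1 was called lower, where 11.4% of all genes were (limma, Benjamini-Hochberg adjusted p under 0.05). Read against those shares, the count of called histone genes is not above the background. With 2 libraries per group, a gene that was not called is not shown to be unchanged. The median log2 difference, OE minus control on the log2(value + 1) scale, was 0.72 over the 62 genes and -0.02 over all genes tested, with 49 of the 62 above 0. Some of these genes, such as Hist1h2bl and Hist1h1t, passed the filter through the OE libraries alone, so the count above 0 is not a test of direction. In bulk samples, a change in the share of a cell type and a change in RNA per cell cannot be told apart.

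Hist1h2bc, which encodes a canonical H2B, had the largest mean over the 4 ESC libraries. Of its 50-base sequences, 30.6% occur in transcripts of other genes, and 220 other genes hold at least 1 of them. Whether reads of such genes entered its value was not tested. It had 563 and 844 normalised reads in OE ESCs, against 103 and 116 in control ESCs. Both OE libraries lay far above both controls, and the log2 difference was 2.65 (SE 0.28, limma adjusted p = 0.0145). Per kilobase of exon the mean level of Hist1h2bc was 609 in OE ESCs and 94.7 in control ESCs. The listed level of Hist1h2ap was 484 per kilobase in OE ESCs, below Hist1h2bc, and 359 in control ESCs, above it. Since Hist1h2ap shares 93.1% of its 50-base sequences with other genes, its level may hold reads of its copies, and this order is uncertain. The divergent partner of Hist1h2bc, Hist1h2ac, is an H2A gene that shares the upstream region printed above. It was listed at 0 in both OE libraries and had 1 read over the 2 control libraries.

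Hist1h1c had 306 and 420 normalised reads in OE ESCs, against 136 and 140 in control ESCs. The groups did not overlap, and the log2 difference was 1.37 (SE 0.26, limma adjusted p = 0.0309). Hist1h4i, an H4 gene, had 102 and 186 normalised reads in OE ESCs, against 30.5 and 32.8 in control ESCs. Both OE values were above both control values, with a log2 difference of 2.09 (SE 0.40, limma adjusted p = 0.0327). Hist1h2be had 36.5 and 63.2 normalised reads in OE ESCs, against 11.4 and 10.3 in control ESCs. The groups did not overlap either, and the log2 difference was 2.05 (SE 0.44, limma adjusted p = 0.0398). The Hist1h2be model overlaps Hist1h1e and the predicted gene Gm11398, so the origin of its reads is uncertain.

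Hist3h2ba, the H2B gene of the small Hist3 cluster, was the one member called lower. It had 46.5 and 70.3 normalised reads in OE ESCs, against 177 and 190 in control ESCs. Both OE libraries lay below both controls, and the log2 difference was -1.66 (SE 0.32, limma adjusted p = 0.0324). Its neighbour Hist3h2a, an H2A gene, had 136 and 176 normalised reads in OE ESCs and 180 and 146 in control ESCs. These values overlapped and the log2 difference was -0.07 (SE 0.27, limma adjusted p = 0.878).

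**Figure D1:**
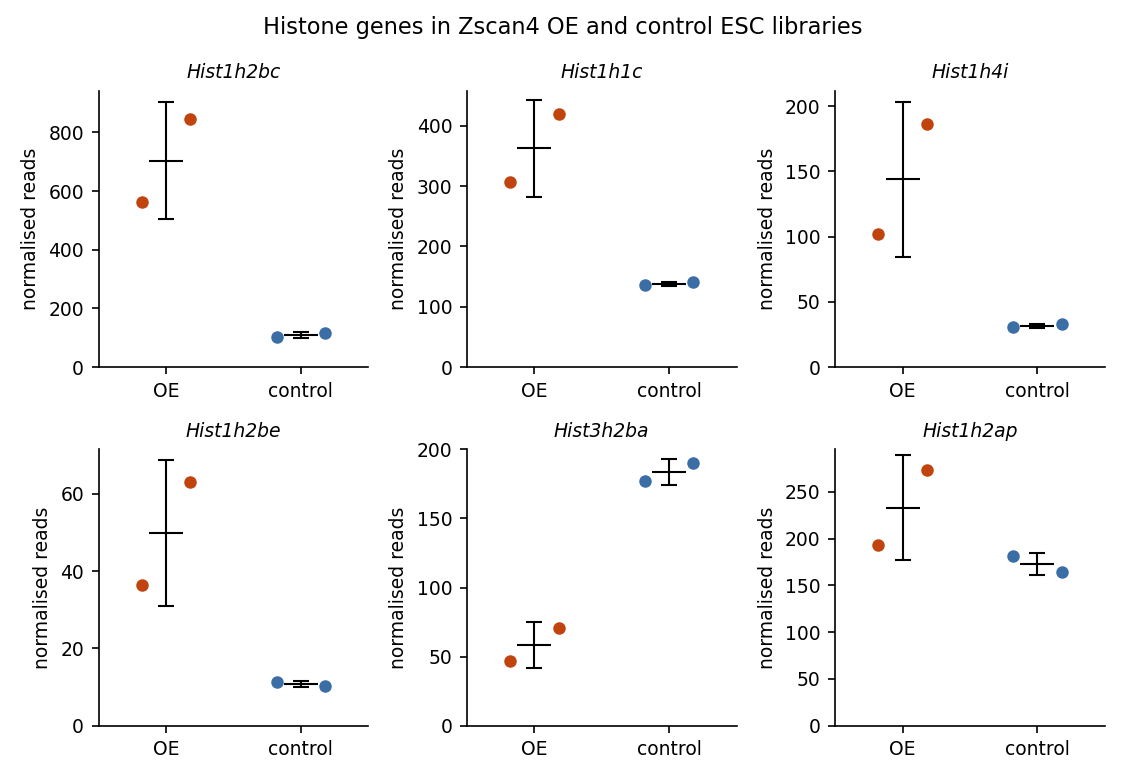
Normalised reads (y axis, linear from 0) of 6 histone genes in each OE (left) and control (right) ESC library. Points are libraries, horizontal bars the mean and vertical bars the SD (n = 2 each). Hist1h2bc, Hist1h1c, Hist1h4i and Hist1h2be are higher and Hist3h2ba is lower in both OE libraries, while Hist1h2ap had a log2 difference of 0.41 that was not called.

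All 5 called genes were among the 22 with a poly(A) signal in the annotated transcript, of which 21 were tested. These 5 of 21 are 23.8%, close to the 23.2% of all tested genes called in either direction. None of the 41 tested genes without such a signal was called by limma, and 2 of these 41 had an unadjusted p under 0.05. The median log2 difference was 0.86 for the 21 genes with the signal and 0.51 for the 41 without. The 22 genes made up 51.2% of the summed histone reads in OE ESCs (means) and 43.4% in control ESCs. Whether a poly(A) tail bore on which messages were read was not tested.

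The other abundant members moved less than the spread allowed. Hist1h3d, an H3 gene, had 177 and 207 normalised reads in OE ESCs, against 130 and 139 in control ESCs (log2 difference 0.51, SE 0.24, limma adjusted p = 0.183). Hist1h2ap had 193 and 273 normalised reads in OE ESCs, against 181 and 165 in control ESCs (log2 difference 0.41, SE 0.27, limma adjusted p = 0.320). In both genes the OE libraries lay above the controls without passing the test. Hist1h2bk, an H2B gene, averaged 102 ± 30.9 in OE ESCs and 88.6 ± 25.6 in control ESCs (SD, n = 2 each), and Hist1h3c, an H3 gene, averaged 97.7 ± 65.9 in OE ESCs and 73.6 ± 0.437 in control ESCs (SD, n = 2 each). Both overlapped between the groups.

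The near-identical copies were split unevenly between symbols in the ESC table. Hist1h2ap carried all the reads of the pair it forms with Hist1h2ao, which was at 0 in all 4 libraries although their coding sequences are the same. Hist2h2aa1 had 91.2 and 328 normalised reads in OE ESCs, against 89.5 and 30.9 in control ESCs, and its copy Hist2h2aa2 had 53.8 and 42.9 in OE ESCs, against 0 and 71.1 in control ESCs. Summed over the pair, the values were 145 and 371 in OE ESCs and 89.5 and 102 in control ESCs. The sum lay above both controls in both OE libraries, and the difference between the OE libraries was larger than that between OE library 1 and the controls. The 8 copies of the large H2A group summed to 405 and 567 in OE ESCs and 297 and 344 in control ESCs.

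The 6 linker histone genes did not move together. Hist1h1a (H1.1) had 18.2 and 52.5 normalised reads in OE ESCs, against 18.1 and 17.8 in control ESCs (limma adjusted p = 0.401). Hist1h1b (H1.5) had 13.7 and 7.15 in OE ESCs, against 10.5 and 9.36 in control ESCs (limma adjusted p = 0.995). Hist1h1d (H1.3) had 9.12 and 26.2 in OE ESCs, against 20 and 15.9 in control ESCs (limma adjusted p = 0.850). Hist1h1b and Hist1h1d overlapped between the groups, and for Hist1h1a only OE library 2 stood clear of the controls. Hist1h1e (H1.4) had 1.82 and 15.5 in OE ESCs, against 12.4 and 15.9 in control ESCs, and overlapped as well. Hist1h1t, the testis linker histone, had 5.47 and 3.58 in OE ESCs, against 0.952 and 0 in control ESCs, which is 9 reads over the OE libraries and 1 read over the controls (limma adjusted p = 0.0769). The germ cell variants Hist1h2aa (TH2A) and Hist1h2ba (TH2B) had 0 reads in the OE libraries, and the controls held 1 read of Hist1h2aa and 0 of Hist1h2ba.

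**Figure D2:**
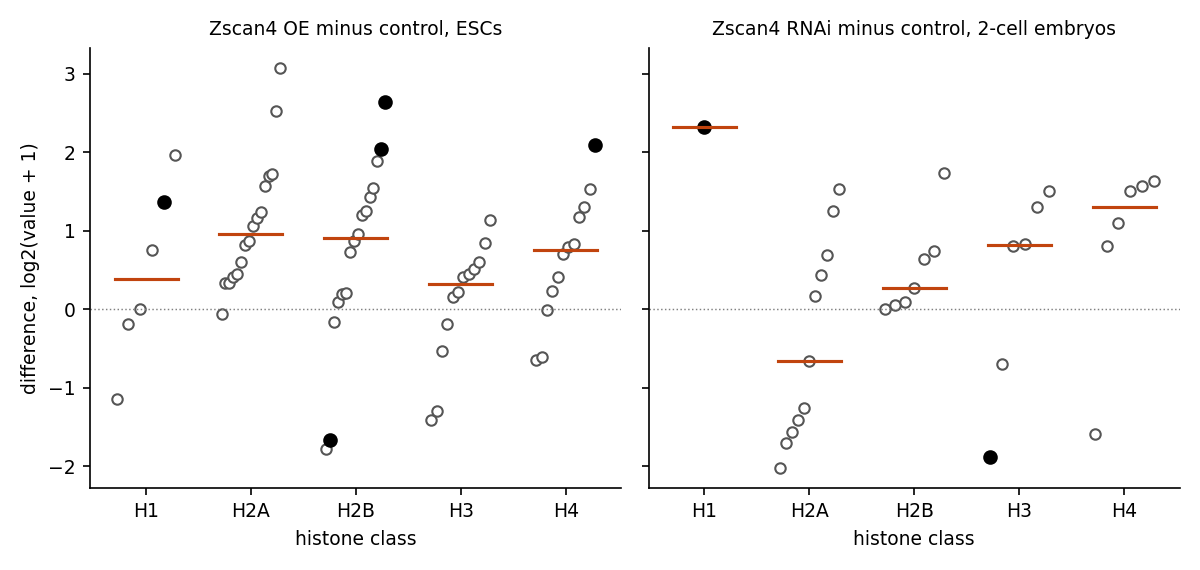
Differences on the log2(value + 1) scale (y axis), OE minus control ESCs (left) and RNAi minus control embryos (right), for each tested gene by histone class. Filled points passed an adjusted p of 0.05 and lines are class medians. In ESCs 15 of 16 H2A genes lie above 0, and in embryos 6 of 11 lie below it. None of these H2A genes was called. Near-identical H2A copies are not separate results, and reads were split differently between them in ESCs and embryos.

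By class, 15 of the 16 tested H2A genes and 13 of the 16 tested H2B genes had a positive log2 difference in ESCs, with medians of 0.97 and 0.91. Over all genes tested, 10303 of 20888 had a positive one. None of the H2A genes was called. Many are near-identical copies that may share reads, so the count is not one of separate results. The 12 H4 genes had a median of 0.75, the 12 H3 genes 0.32 and the 6 H1 genes 0.38. By cluster, the 51 tested Hist1 genes had a median of 0.80, and 45 were above 0. The 8 tested Hist2 genes had a median of -0.59 and 5 of them were below 0, and both tested Hist3 genes were below 0. Summed over all 70 genes, normalised reads were 2866 and 4582 in OE ESCs, against 2110 and 2264 in control ESCs, with a ratio of the means of 1.70. Both OE sums lay above both controls, and OE library 2 was far above OE library 1. The Hist1 cluster held 85.0% and 83.4% of these reads in OE ESCs, against 68.2% and 70.5% in control ESCs. The Hist3 cluster held 6.36% and 5.39% in OE ESCs, against 16.9% and 15.0% in control ESCs. H3 genes held 19.4% and 18.3% in OE ESCs, against 27.5% and 28% in control ESCs, so that the makeup differed by more than the spread between the libraries of either group. Summed H3 reads themselves overlapped, at 557 and 839 in OE ESCs, against 581 and 634 in control ESCs. The called gene Hist1h2bc carries part of the shift in these sums and shares. Its mean was 704 in OE ESCs and 109 in control ESCs, within 70-gene means of 3724 and 2187.

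**Figure D3:**
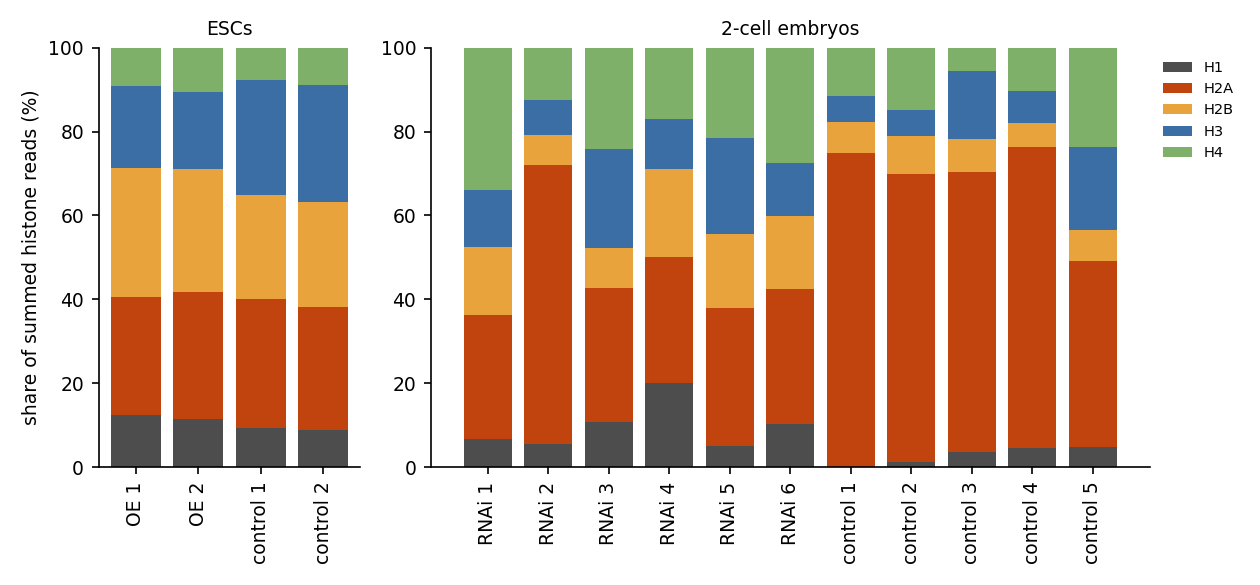
Share of the summed normalised histone reads (y axis, percent) held by H1, H2A, H2B, H3 and H4 genes in each ESC library (left, OE before control) and embryo library (right, RNAi before control). The H3 share is 18.3 to 19.4% in OE and 27.5 to 28% in control ESCs; the H2A share is 66.4% in RNAi library 2, 29.5 to 32.9% in the other RNAi libraries, 66.7 to 74.9% in controls 1 to 4 and 44.3% in control 5.

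Divergent neighbours that share an upstream region were compared where both passed the filter. There are 15 such pairs with under 1000 bases between their starts, nearly all of 1 H2A and 1 H2B gene, and in ESCs 11 had both genes tested. In 9 of the 11 both genes had a positive difference, and the 2 differences of a pair lay a median of 0.98 apart on the log2 scale. Since 15 of the 16 tested H2A and 13 of the 16 tested H2B genes were positive, this count does not show that neighbours move together. The widest gap, 2.12, was that of Hist2h2ac (0.34) and Hist2h2be (-1.78, limma adjusted p = 0.0711), 2 genes of the Hist2 cluster named after their values were seen. In embryos 4 pairs had both genes tested, and 2 of these had differences of the same sign.

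The 5 calls depend on having both control libraries. Without control 1 or without control 2, limma lost these 5 calls and those of every other gene of the 20888. With all libraries, edgeR called 2357 genes higher and 2178 lower. Without control 1 and without control 2, the log2 differences were 2.56 and 2.73 for Hist1h2bc and -1.71 and -1.61 for Hist3h2ba. For all 5 genes both OE libraries lay on the same side of both controls. Their sign could therefore not change when a control was left out, and keeping it is no support. Without OE library 1, 11 of 62 histone genes were called higher, where 24.4% of all genes were, and without OE library 2, 2 were called lower, where 22.2% of all genes were. Hist1h2be was also lost without OE library 2, without a filter and with library weights (adjusted p = 0.0510, 0.0511 and 0.0767). Of 5 fibroblast markers in the table, 4 had a read in each OE library and 2 in each control, where Dcn, Lum and Postn were at 0, with summed normalised reads of 290 and 349 in OE ESCs and 71.4 and 50.6 in control ESCs, while the 6 ESC markers summed to 85550 and 98702 in OE ESCs and 78526 and 78803 in control ESCs. The part of such cells in the histone values was not tested.

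In 2-cell embryos with Zscan4 RNAi, the histone message summed to about the level of the controls, but its makeup was not the same. The linker histone gene Hist1h1a rose, with a mean of 19.0 normalised reads in RNAi embryos against 4.40 in controls, and the H3 gene Hist1h3g fell, with a mean of 0.729 in RNAi embryos against 5.29 in controls. The near-identical H2A copies held most of the histone reads in 4 of the 5 controls and a minority in 5 of the 6 RNAi libraries, but none of them passed the test. Reads that match several copies may count more than once in these shares. Of the 70 genes, 67 had a read and 31 passed the filter of a value of at least 1 in 5 libraries; the other 39 were too sparse to test. Of the 31, 1 was called higher, where 6.13% of all 16417 genes tested were, and 1 was called lower, where 12.0% of all genes were (limma, adjusted p under 0.05). The median log2 difference, RNAi minus control, was 0.64 over the 31 genes and -0.03 over all genes, and 22 of the 31 were above 0. A gene can pass the filter through the RNAi libraries alone. Hist1h3e did so, with 11 reads over the RNAi libraries and 0 over the controls, so the count above 0 is not a test of direction. Over the 7 genes with a mean of at least 10, 4 of them near-identical H2A copies, the median was -1.42.

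Summed over the 70 genes, normalised reads ran from 71.2 to 310 in RNAi embryos (median 219), against 241, 179, 230, 365 and 104 in controls 1 to 5. The 2 ranges overlapped over most of their width. RNAi library 5 and control 5 held the lowest sums of their groups.

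Hist1h1a, the H1.1 gene, shares none of its 50-base sequences with another transcript. It ranged from 3.61 to 32.5 normalised reads in RNAi embryos (median 17.7), against 0, 1.48, 1.39, 15.2 and 3.91 in controls 1 to 5. All 5 controls lay below the other 5 RNAi libraries, and RNAi library 5 alone made the groups overlap. The log2 difference was 2.32 (SE 0.70, limma adjusted p = 0.0265), from 121 reads over the RNAi libraries and 20 over the controls. Of the other linker genes, Hist1h1b had 2 reads over the RNAi libraries, Hist1h1c 5, Hist1h1d 2, and Hist1h1e and Hist1h1t none, and none passed the filter. The H1 share was 5.06 to 20% of the summed histone reads in RNAi embryos (median 8.52%) and 0 to 4.72% in controls, with no overlap between the groups. That gap rests on a few reads, with 4 H1 reads of 79 in RNAi library 5 and 5 of 106 in control 5. Summed normalised H1 reads did overlap, at 3.61 in RNAi library 5 and 16.4 in control 4. Hist1h1a made up most of the H1 share in every RNAi library, while in control 3 Hist1h1b had 6.96 normalised reads and Hist1h1a 1.39.

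Hist1h3g ranged from 0 to 3.47 normalised reads in RNAi embryos (median 0), against 1.68, 3.69, 9.74, 9.37 and 1.96 in controls 1 to 5. It was at 0 in 4 of the 6 RNAi libraries and was read in all 5 controls, with a single RNAi library, number 6, inside the control range. The log2 difference was -1.89 (SE 0.60, limma adjusted p = 0.0355), and it rests on 5 reads over the RNAi libraries and 24 over the controls. Since 54.1% of its 50-base sequences occur in other histone transcripts, its value is uncertain.

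The 4 most abundant symbols in embryos were H2A copies. Hist1h2ag ranged from 0.902 to 53.3 normalised reads in RNAi embryos (median 6.69), against 48.6, 28.8, 37.6, 60.9 and 1.96 in controls 1 to 5. RNAi library 2 lay with controls 1 to 4, and control 5 lay with the other RNAi libraries. Hist1h2ah had the same number of reads as Hist1h2ag in 8 of the 11 libraries and differed from it by at most 2 reads in the others. Hist1h2ap ranged from 0.902 to 41.0 in RNAi embryos (median 3.36), against 41.1, 26.6, 33.4, 66.7 and 2.93 in controls 1 to 5. The same libraries were high. The log2 differences of Hist1h2ag, Hist1h2ah, Hist1h2ap and Hist1h2ao were -1.56, -1.71, -2.02 and -1.42 (limma adjusted p = 0.174, 0.108, 0.0756 and 0.140), and the pseudogene Hist1h2aj of the same group had -0.66 (limma adjusted p = 0.478).

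Summed over the 8 near-identical H2A genes, normalised reads ranged from 6.31 to 187 in RNAi embryos (median 26.1), against 172, 108, 135, 241 and 25.4 in controls 1 to 5. Library 2 gave the 187, and the other 5 RNAi libraries reached 41.7 at most. H2A genes in all held 29.5 to 66.4% of the histone reads in RNAi embryos (median 32.0%), against 74.9%, 68.6%, 66.7%, 71.8% and 44.3% in controls 1 to 5. If reads that match several copies were counted at each copy, they enter these H2A sums and shares more than once, which was not tested. The split of reads between copies also differed between embryos and ESCs. Hist1h2ao and Hist1h2ap had 147 and 243 reads over the embryo libraries, against 0 and 807 over the ESC libraries. H2A sums and shares are therefore not comparable between embryos and ESCs. Without the H2A genes, the sum of the rest ranged from 47.8 to 178 in RNAi embryos (median 139), against 60.4, 56.1, 76.5, 103 and 57.7 in controls 1 to 5. In that sum 5 RNAi libraries were above every control, and RNAi library 5 was below them.

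Among the H4 genes, Hist1h4c ranged from 6.31 to 30.2 normalised reads in RNAi embryos (median 16.1), against 5.03, 6.64, 1.39, 3.51 and 11.7 in controls 1 to 5. RNAi library 5 alone made the groups overlap, and the log2 difference was 1.57 (SE 0.57, limma adjusted p = 0.0582). Hist1h4a had a log2 difference of 1.51 (SE 0.64, limma adjusted p = 0.104). Hist1h4i lay the other way, ranging from 0 to 6.87 in RNAi embryos (median 2.06), against 13.4, 15.5, 8.35, 24.6 and 0 in controls 1 to 5. Controls 1 to 4 were above every RNAi library and control 5 had no read, and the log2 difference was -1.59 (SE 0.77, limma adjusted p = 0.154). The 6 tested H4 genes had a median log2 difference of 1.30, with 5 above 0.

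**Figure D4:**
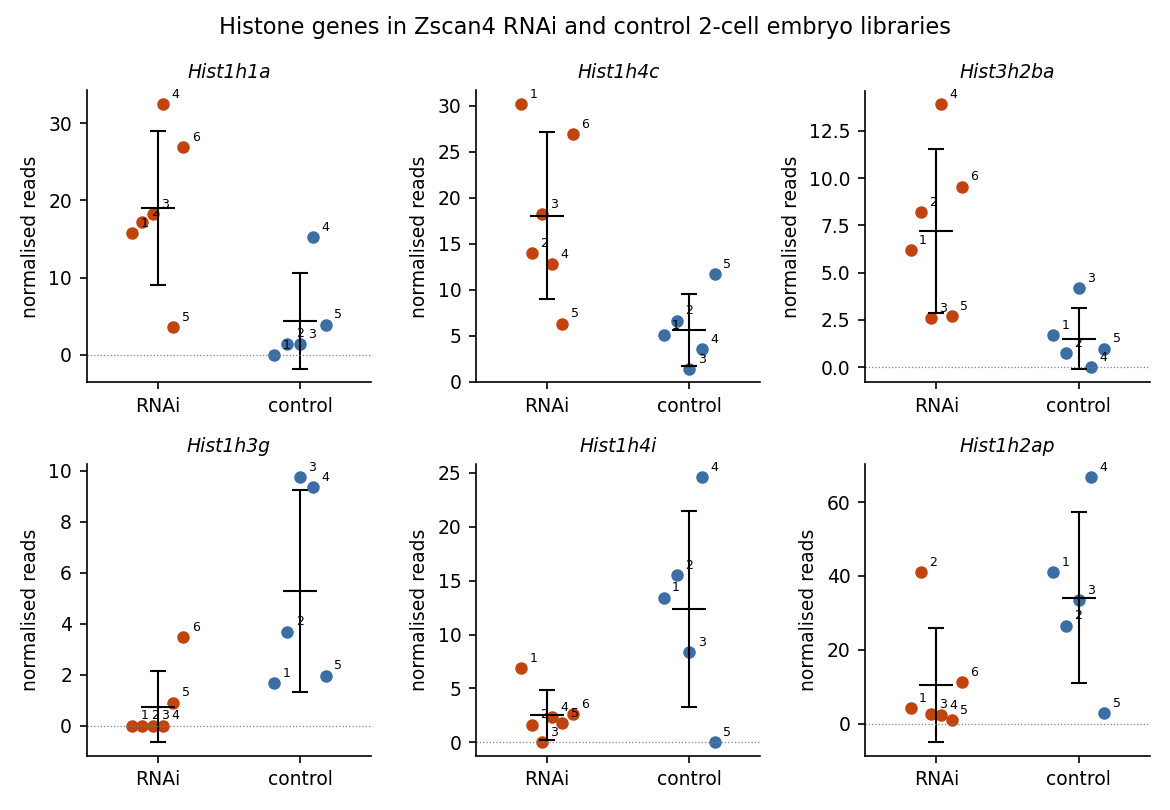
Normalised reads (y axis, linear; the dotted line is 0) of 6 histone genes in each RNAi (left) and control (right) 2-cell embryo library. Points are libraries with their numbers, horizontal bars the mean and vertical bars the SD (n = 6 and 5). Control 5 lies with the RNAi libraries for Hist1h4i and Hist1h2ap, and RNAi library 2 lies with controls 1 to 4 for Hist1h2ap.

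Hist3h2ba, the gene called lower in OE ESCs, ranged from 2.61 to 13.9 normalised reads in RNAi embryos (median 7.19), against 1.68, 0.738, 4.17, 0 and 0.978 in controls 1 to 5. RNAi libraries 3 and 5 lay inside the control range, and the log2 difference was 1.73 (SE 0.61, limma adjusted p = 0.0539). It was named for embryos after its values were seen. The pseudogene Hist1h2al, outside the main cluster, ranged from 4.92 to 26.0 in RNAi embryos (median 17.7), against 1.68, 3.69, 5.57, 7.02 and 11.7 in controls 1 to 5 (log2 difference 1.25, SE 0.59, limma adjusted p = 0.142). Of the other genes called in ESCs, Hist1h2bc had 14 reads over the RNAi libraries and 11 over the controls, and Hist1h1c had 5 over the RNAi libraries and 1 over the controls.

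The germ cell variants were read in embryos. Hist1h2aa (TH2A) ranged from 1.80 to 7.55 normalised reads in RNAi embryos (median 3.38), against 1.68, 3.69, 4.17, 2.34 and 0.978 in controls 1 to 5. Hist1h2ba (TH2B) ranged from 0 to 6.18 in RNAi embryos (median 2.70), against 0.839, 2.21, 0, 3.51 and 0 in controls 1 to 5. Both overlapped widely, with log2 differences of 0.44 (SE 0.56, limma adjusted p = 0.621) and 0.74 (SE 0.65, limma adjusted p = 0.448).

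Without control 5, the library that stands apart, 2 of 31 histone genes were called higher, where 7.94% of all genes were, and 6 lower, where 13.9% were. The 6 were Hist1h2ag, Hist1h2ah, Hist1h2ao, Hist1h2ap, Hist1h3g and Hist1h4i, and the 4 H2A copies were also called without RNAi library 2. Control 5 and RNAi library 2 are the libraries seen to run against the H2A difference, so calls made without them are no independent support. The 4 copies may also share reads, so the 6 are not 6 separate results. Hist1h1a had a limma adjusted p of 0.0567 to 0.0746 without RNAi library 4 or 6 or without control 1, 2 or 3, and Hist1h3g one of 0.0586 to 0.0944 without RNAi library 1, 2, 3 or 4 or control 2, 3 or 4, so both calls were lost in those cases, and edgeR called neither (adjusted p = 0.0741 and 0.101). Oocyte and 2-cell markers differed between libraries as well. The 10 markers summed to 5490 to 13713 normalised reads in RNAi embryos (median 9519) and 3744 to 6825 in controls, with all 10 read in every library. RNAi libraries 2 and 5 lay inside the control range, at 6519 and 5490, and control 5 had 5175, the control median. The part of these markers in the histone values was not tested.

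Genes that act with the clustered genes were followed as 3 lists. Of 15 histone variant genes outside the clusters, 13 were tested in ESCs, of which 15.4% were called, against 23.2% of all genes, with H1f0 (linker histone H1.0) called higher and H3f3b (H3.3) called lower. H1f0 averaged 2788 ± 469 normalised reads in OE ESCs and 1422 ± 70.8 in control ESCs, and H3f3b 14833 ± 1379 in OE ESCs and 26496 ± 169 in control ESCs (SD, n = 2 each). In embryos 11 were tested, of which 1 was called higher and 3 lower, or 36.4% in all against 18.2% of all genes. H1foo, the oocyte linker histone, averaged 450 ± 472 in RNAi embryos (n = 6) and 90.3 ± 33 in controls (n = 5), with a log2 difference of 1.93 (limma adjusted p = 0.00694). H2afz (H2A.Z), H2afv and H2afj were lower, with log2 differences of -1.35, -1.46 and -1.77 (limma adjusted p = 0.0176, 0.0499 and 0.0196). The median over the list was 0.43 in ESCs and -0.73 in embryos.

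The list for the transcription and 3' end processing of histone messages held 25 symbols, with Srrt entered also under its other name, Ars2. Of these symbols, 23 were tested in ESCs, and 2 were called higher and 1 lower, or 13.0% in all against 23.2% of all genes. Srrt (ARS2, a cap complex partner) and Cstf3 (a cleavage factor subunit) had log2 differences of 1.07 and 1.19, and Upf1, an RNA helicase of decay, had -0.72 (limma adjusted p = 0.0236, 0.0233 and 0.0377). In embryos 21 were tested, of which 19.0% were called, against 18.2% of all genes. Called higher were Zfp473 (which binds the U7 snRNP) and Eri1 (a stem-loop exonuclease), with log2 differences of 2.18 and 1.75 (limma adjusted p = 0.0318 and 0.0248). Cpsf1 (a cleavage factor) and Ncbp1 (a cap-binding protein) were called lower, with -2.16 and -2.36 (limma adjusted p = 0.0399 and 0.0128). The list medians were -0.24 in both comparisons.

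Of 25 S-phase replication genes, 23 were tested in ESCs, with 3 called higher and 0 lower by limma (11 at an unadjusted p under 0.05), or 13.0% higher against 11.7% of all genes, namely Tyms, Mcm7 and Ccne1 with log2 differences of 1.58, 0.96 and 0.90 (limma adjusted p = 0.0209, 0.0354 and 0.0432). In embryos all 25 were tested, with 7 called lower and 0 higher by limma (12 at an unadjusted p under 0.05), or 28% lower against 12.0% of all genes. Tyms (thymidylate synthase), Cdk2 (an S-phase kinase) and Gins1 (a replisome subunit) had log2 differences of -4.01, -2.42 and -2.39 (limma adjusted p = 0.00200, 0.0112 and 0.0121). The list median was 0.23 in ESCs and -0.87 in embryos, against 0.72 and 0.64 over the histone genes. The embryo value of 0.64 does not mean that histone message rose. Summed histone reads had a ratio of means of 0.953, RNAi over control embryos. Over the members with a mean of at least 10, a set with near-identical H2A copies, the embryo median was negative, as given above. The mean log2(value + 1) of the S-phase list was 4.21 to 5.74 in RNAi embryos (median 5.31) and 6.04, 6.19, 6.09, 6.17 and 5.72 in controls 1 to 5, so that control 5 was the lowest control here too and overlapped with RNAi library 2.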

How the data were processed

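The authors deposited 1 table of normalised read signal for the 4 ESC libraries and 1 for the 11 embryo libraries. Per the submitters' processing notes, Trimmomatic, HISAT2 and featureCounts were used with mm10; no source used here gives versions, strand setting or the treatment of multiply mapped reads. Every value was a whole number of reads (tolerance 0.01) divided by a size factor for its library, so reads were recovered for all values (100%). The labels name the molecule genomic DNA; the values are analysed as gene expression, the type given for the series.

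Members and lists were chosen with earlier results of these data known. Differences were tested with limma 3.58.1 (trend) on log2(value + 1), within each table, keeping genes that reached a value of 1 in 2 ESC or 5 embryo libraries, with Benjamini-Hochberg adjustment over all genes tested. Fold changes on that scale understate changes of low genes. Alternatives were a pseudocount of 0.5, no filter, a mean of at least 10, TMM scaling, edgeR 4.0.16 and DESeq2 1.42.0 on the recovered reads, library weights, a replicate block in ESCs and leaving out each library. On recovered reads edgeR called 2357 genes higher and 2178 lower in OE ESCs, and 750 higher and 1473 lower in RNAi embryos. The text names the 10 members with the largest means per comparison, all called members, the H1 genes, Hist1h2aa and Hist1h2ba, and up to 3 called genes per direction of each list. Replicate numbers did not pair the ESC libraries. Shared sequences were counted as 50-base words of GENCODE vM21 transcripts, and 60% of both genes linked copies.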

Additional observations from a re-analysis of the deposited data

Results flagged for a closer look

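Of 46 sets of embryo values tested for a library far from the others of its group, 15 stood apart by Dixon's criterion, where chance gives about 1 in 20 for continuous values. That share does not hold for counts that are mostly 0, where a single read can stand apart. RNAi library 2 was far above the other RNAi libraries for the H2A copies. It had 53.3 normalised reads of Hist1h2ag, 51.7 of Hist1h2ah, 41.0 of Hist1h2ap, 25.4 of Hist1h2ao and 13.1 of Hist1h2aj, 187 over the 8 near-identical genes and 206 over all H2A genes. These values share reads and are not independent of each other. Control 4 was the high control for Hist1h1a (15.2) and for Hist1h2aj (16.4). The other values that stood apart rest on a few reads: Hist1h3g in RNAi library 6 (3.47), Hist1h1b in RNAi library 3 (2.61) and control 3 (6.96), Hist1h1c in RNAi library 4 (5.80) and control 2 (0.738), and Hist1h1e in control 5 (0.978).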

How the results depend on the processing

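In ESCs the histone genes called higher numbered 3 to 6 and the genes called lower 1 under the pseudocount, filter, TMM, edgeR, DESeq2 and library weight alternatives. With a replicate block they were 7 and 2, though the numbers do not pair the libraries (correlation of deviations -0.01). Leaving out 1 library gave 0 to 11 called higher and 0 to 2 called lower; the lone library left in a group is then assumed to vary like the other group. In embryos, the counts called higher and lower were 1 and 0 without a filter, 2 and 0 with a mean of at least 10, 2 and 1 with TMM, 0 and 0 with edgeR (10 of 31 at an unadjusted p under 0.05), 3 and 1 with DESeq2, and 3 and 3 with library weights. Leaving out 1 embryo library gave 0 to 3 higher and 0 to 6 lower. The causes were not tested. No paired analysis was possible for embryos because the control columns carry other numbers than the labels.

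The ESC median log2 difference of 0.72 stayed between 0.35 and 0.93. The embryo median of 0.64 was -1.42 over the 7 genes with a mean of at least 10, 4 of which are near-identical H2A copies, and 0.46 to 0.71 when 1 library was left out. An alternative chosen after seeing the data, members with under 50% shared sequences, gave 0.78 in both comparisons; the planned version with a genome was not run. The control mean of summed H1 reads in ESCs was 199.8 with TMM, against 199. The sign of 6 uncalled ESC genes changed on leaving out 1 library, with ranges of -0.25 to 0.12 for Hist3h2a, -0.11 to 0.51 for Hist1h2bk, -0.52 to 0.96 for Hist1h3c, -0.42 to 0.43 for Hist1h1b (-0.0088 with TMM), -0.90 to 0.53 for Hist1h1d and -2.41 to 0.13 for Hist1h1e. Depth limits the embryo results, where 39 of 70 genes were too sparse to test.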
